A study of Arabidopsis thaliana with 36 samples.

Results

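Roots of the Arabidopsis thaliana mutant nlp2-2 were compared with roots of the wild-type line Col-4 across all genes, with 3 RNA-seq libraries on each side. The libraries were chosen by genotype and tissue alone, and these 6 are part of a series of 36 that covers 6 genotypes (Col-0, Col-4, nlp2-2, nlp2-3, nlp7-1 and the double mutant nlp2-3 nlp7-1) in roots and in rosettes, called shoots here. Every genotype, Col-4 included, is listed under the ecotype Col-0, and the labels give neither the nature of the nlp2-2 lesion nor the wild type it descends from. Plants were 42 days old and had been grown on sand with 5 mM nitrate, described as a non-limiting supply, under 8 h of light at 21°C and 16 h of dark at 18°C, so no group was starved of nitrate or resupplied with it. The labels call the 3 libraries of a group biological replicates and do not say whether plants were pooled.

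NIN-like proteins (NLPs) are transcription factors of plants that bind nitrate-responsive elements in promoters and switch on nitrate uptake, reduction and assimilation genes. NLP7 is the best known member, and nitrate controls its place in the cell by keeping it in the nucleus. In roots, nitrate taken up from the soil is either reduced on the spot or loaded into the xylem and sent to the shoot. NLP2 is a close relative of NLP1.

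NLP2 (AT4G35270) itself was at 54.2, 57.1 and 55.0 CPM (counts scaled to a library total of 1e+06) in the Col-4 libraries 1, 2 and 3 and at 20.3, 13.1 and 20.8 CPM in the nlp2-2 libraries. The groups were far apart, but the transcript was still detected in every mutant library, at 3.08-fold below the wild type on average (log2 fold change -1.62 ± 0.12 SE, adjusted p = 1.7e-07 by edgeR's quasi-likelihood test with Benjamini-Hochberg adjustment, which gives every adjusted p here unless another tool is named). Reads are counted over the whole gene, so the remaining signal does not say whether a full-length transcript was made. In the root libraries of the other allele, nlp2-3, the fall against Col-0 was smaller (-0.84 ± 0.11, adjusted p = 0.00012), and the difference between these falls was not called (adjusted p = 0.14).

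Of the 9 NLP genes, 8 had enough counts to be tested. NLP4 rose from 54.2, 48.5 and 56.9 CPM to 87.7, 70.7 and 79.5 CPM (0.58 ± 0.09, adjusted p = 0.00026), and NLP5 rose from 24.5, 25.6 and 26.3 CPM to 33.4, 31.5 and 34.8 CPM (0.38 ± 0.07, adjusted p = 0.0014). For both genes every mutant library lay above every wild-type library. NLP1, NLP3, NLP6, NLP7 and NLP8 were not called, with log2 fold changes of 0.07, 0.25, 0.11, 0.12 and 0.26, and NLP9 was nearly silent in the 6 libraries. NLP7 was at 91.8, 101 and 97.5 CPM in Col-4 and 114, 94.7 and 108 CPM in nlp2-2, and these ranges overlap.

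The 6 libraries held 18385020 to 22361036 counted fragments, and 22235 to 22811 features were detected in each. The first principal component of the 6 libraries took 43.1% of the variance and separated the genotypes. Summed leaf markers were at 111 to 163 CPM in Col-4 roots and at 94.2 to 171 CPM in nlp2-2 roots, against at least 1.2e+05 CPM in Col-4 shoots, and none of the 16 tested leaf markers was called (2 were without nlp2-2 library 3). Endodermis, root hair, xylem, phloem and stele markers were all detected in every group of root libraries, as the tissue label states. In whole roots, fewer cells of a type and less RNA per cell cannot be told apart.

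At an adjusted p below 0.05, which is what called means here, 1458 of 20486 genes were called (7.12%), 656 higher (3.2%) and 802 lower (3.91%) in nlp2-2. Of the called genes, 234 (1.14% of those tested) changed at least 2-fold, 83 upwards and 151 downwards. In 1447 of the called genes the 3 mutant and the 3 wild-type libraries did not overlap (7.06% of those tested), and over all tested genes that held for 24.5%. Without Col-4 library 3, nlp2-2 library 1 or nlp2-2 library 2, the count was 907, 931 and 846. Where the call of a gene named below was lost, brackets name the libraries that ended it when left out one at a time. The median log2 fold change of all genes was -0.01. With the replicate number as a block, 841 genes were higher and 917 lower. Called genes lay on all 5 chromosomes, from 6.43% of the tested genes on chromosome 5 to 7.67% on chromosome 3, and of the 40 tested genes nearest to NLP2, 20 on each side, 2 were called (AT4G35160 and AT4G35380, at 0.80 and 0.41).

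**Figure D1:**
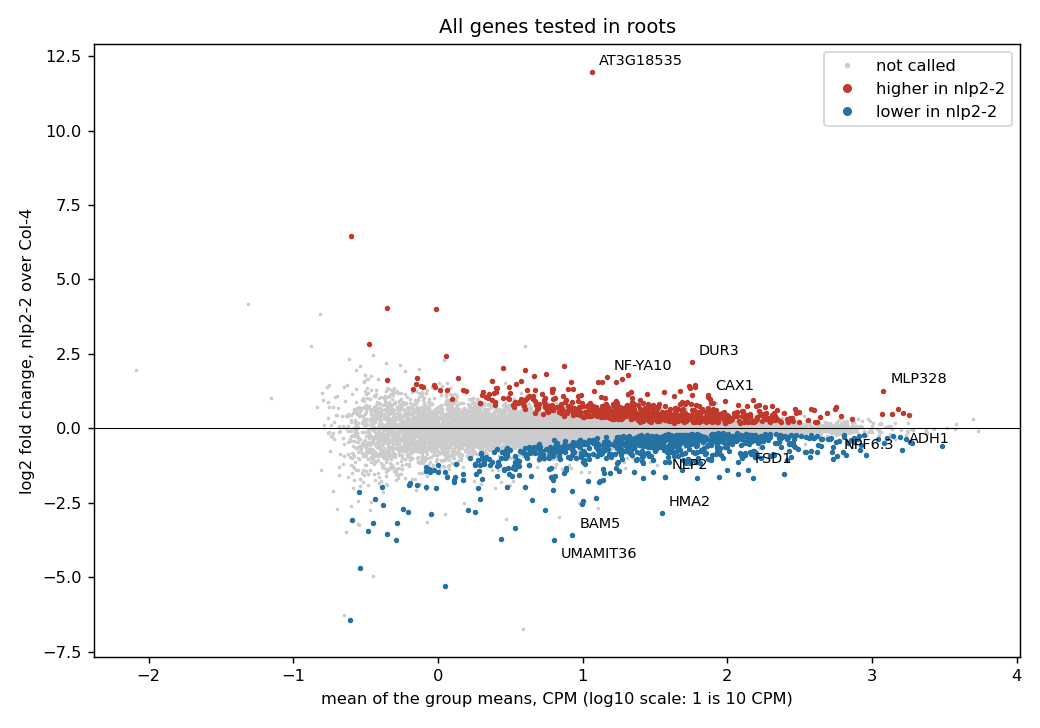
Log2 fold change of nlp2-2 over Col-4 roots (vertical axis) against the mean of the group means in CPM (horizontal axis, log10 scale) for every tested gene with reads in the 6 libraries; red points are called higher and blue points called lower. Of the called changes of at least 2-fold, 151 are downward, among them HMA2, UMAMIT36 and BAM5, and 83 upward. DUR3 is the largest rise among the labelled genes with reads in both groups. AT3G18535, at 0 reads in Col-4, stands apart at a height that depends on the prior count of the fit.

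Of the listed nitrate transport genes, more were called lower than higher. Of 26 listed genes 24 were tested, 12 with a positive and 12 with a negative log2 fold change, and 10 were called lower and 2 higher. That is 50% called against 7.12% of all genes, with a median log2 fold change of -0.13. This list and the others were drawn up with earlier results of these data known. Their shares therefore describe the listed genes and do not test an enrichment. The NPF family, found by symbol and in part the same genes, had 3 of 23 tested members higher and 4 lower (30.4% called, median 0.05). NPF6.3, also known as NRT1.1, which imports nitrate and also senses it, was at 738, 773 and 738 CPM in Col-4 and 426, 351 and 392.2 CPM in nlp2-2 (-0.94 ± 0.09, adjusted p = 3.2e-06). NPF7.3, also known as NRT1.5, the carrier that moves nitrate into the xylem of roots, was at 354, 315 and 371 CPM and 179, 170.5 and 154 CPM (-1.05 ± 0.09, adjusted p = 1.2e-06). For both genes the highest mutant library was far under the lowest wild-type library. NPF7.2 (NRT1.8), which takes nitrate back out of the xylem, fell as well, from 37.7, 38.7 and 28.0 CPM to 17.1, 19.5 and 12.04 CPM (-1.10 ± 0.20, adjusted p = 0.0024), so genes for both directions of exchange with the xylem were lower.

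Genes for anion channels of the SLAC/SLAH group, which release nitrate or chloride from cells, followed. SLAH1 was at 13.1, 13.4 and 16.01 CPM in Col-4 and 7.62, 8.43 and 6.96 CPM in nlp2-2 (-0.88 ± 0.14, adjusted p = 0.00042). SLAH3 fell by 1.69-fold (-0.76 ± 0.21, adjusted p = 0.04) and SLAH2 by 1.37-fold (-0.45 ± 0.10, adjusted p = 0.0089). The NRT2 family of high-affinity transporters split. NRT2.1, the main high-affinity importer, was at 1330, 1296 and 1098 CPM in Col-4 and 1415, 1302 and 1229 CPM in nlp2-2 and was not called (0.08 ± 0.12, adjusted p = 0.79), whereas its partner protein gene NRT3.1 (NAR2.1) fell from 452, 462 and 390.1 CPM to 260.4, 253 and 231 CPM (-0.81 ± 0.14, adjusted p = 0.0013). NRT2.6 fell from 43.0, 35.5 and 30.2 CPM to 15.9, 16.4 and 15.7 CPM (-1.18 ± 0.24, adjusted p = 0.0066). NRT2.4 and NRT2.5, known as nitrogen-starvation transporters, rose: NRT2.4 from 7.21, 5.48 and 5.23 CPM to 12.3, 14.9 and 10.5 CPM (1.07 ± 0.14, adjusted p = 5.6e-05), and NRT2.5 from 1.24, 0.822 and 1.48 CPM to 3.69, 3.41 and 3.51 CPM (1.58 ± 0.23, adjusted p = 0.00018). Per transcript length, NRT2.5 stayed a rare message, at 0.633 FPKM in Col-4 and 1.92 FPKM in nlp2-2, beside 338 and 178 FPKM for NPF6.3. The call depended on single libraries for SLAH3 (Col-4 1 and 2, nlp2-2 1, 2 and 3, adjusted p up to 0.161) and SLAH2 (Col-4 2, adjusted p = 0.052). SLAH3 was not called without the filter on low counts or against Col-0 (adjusted p up to 0.0684).

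Assimilation genes moved in both directions, with 9 of 23 tested members higher and 6 lower (65.2% called against 7.12% of all genes, median 0.09); without nlp2-2 library 2 the count of lower members was 3. The steps that reduce nitrate were on the lower side. NIA1, a nitrate reductase gene, was at 2199, 2391 and 2047 CPM in Col-4 and 1774, 1451 and 1478 CPM in nlp2-2 (-0.50 ± 0.12, adjusted p = 0.019), while NIA2, the other, was at 671, 575 and 591 CPM and 649, 503 and 631 CPM and was not called (adjusted p = 0.9). NIR1, the nitrite reductase, fell from 1061, 1007 and 928 CPM to 783, 599.8 and 666 CPM (-0.55 ± 0.10, adjusted p = 0.0017), and UPM1, which makes the sirohaem cofactor of nitrite reductase, fell from 446, 433 and 418 CPM to 370.1, 309.6 and 356 CPM (-0.32 ± 0.09, adjusted p = 0.038). In none of these called genes did a mutant library reach the lowest wild-type library. With single libraries left out, the call was lost for NIA1 (Col-4 1 and 2, nlp2-2 2 and 3, adjusted p up to 0.107) and UPM1 (Col-4 1, 2 and 3, nlp2-2 2 and 3, adjusted p up to 0.221). UPM1 was not called by limma on log2(FPKM + 1 or 0.1) (adjusted p up to 0.0519).

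Of the tested genes that take up reduced nitrogen 4 rose and none fell, while those of its assimilation were split, 5 higher and 3 lower. The ammonium transporter gene AMT1;1 had too few counts to be tested. DUR3, the proton-coupled urea importer, rose 4.63-fold, from 21.8, 21.2 and 17.2 CPM in Col-4 to 92.0, 102 and 84.7 CPM in nlp2-2 (2.21 ± 0.11, adjusted p = 4.8e-10). The ammonium transporter genes AMT1;2, AMT1;3 and AMT2 rose by 0.80, 0.51 and 0.39 on the log2 scale (adjusted p = 0.0016, 0.0085 and 0.00019). Of the cytosolic glutamine synthetase genes, GLN1;4 rose from 32.2, 36.6 and 31.1 CPM to 82.2, 100.3 and 77.4 CPM (1.38 ± 0.14, adjusted p = 1.8e-05), GLN1;1 by 0.51 and GLN1;2 by 0.47 (adjusted p = 0.00013 and 0.0059), and GLN1;3 was not called (0.09 ± 0.07). These genes are close copies, and how reads that match more than 1 copy were counted is not given in the sources used here. GLU2, a ferredoxin-dependent glutamate synthase, rose by 0.40 (adjusted p = 0.00083), while GLU1, its leaf-type relative, was low in roots and fell from 2.72, 4.57 and 3.58 CPM to 0.934, 1.75 and 1.89 CPM (-1.25 ± 0.27, adjusted p = 0.0062). The glutamate dehydrogenase genes parted too, GDH3 higher by 0.77 and GDH1 lower at -0.48 (adjusted p = 0.0013 and 0.0013), and the asparagine synthetase gene ASN2 was lower at -0.40 (adjusted p = 0.016). Calls ended by the loss of 1 library were those of AMT1;3 (Col-4 3, nlp2-2 1, adjusted p up to 0.0536) and ASN2 (Col-4 3, nlp2-2 1 and 2, adjusted p up to 0.105). AMT1;3 was not called against Col-0 (adjusted p = 0.105).

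**Figure D2:**
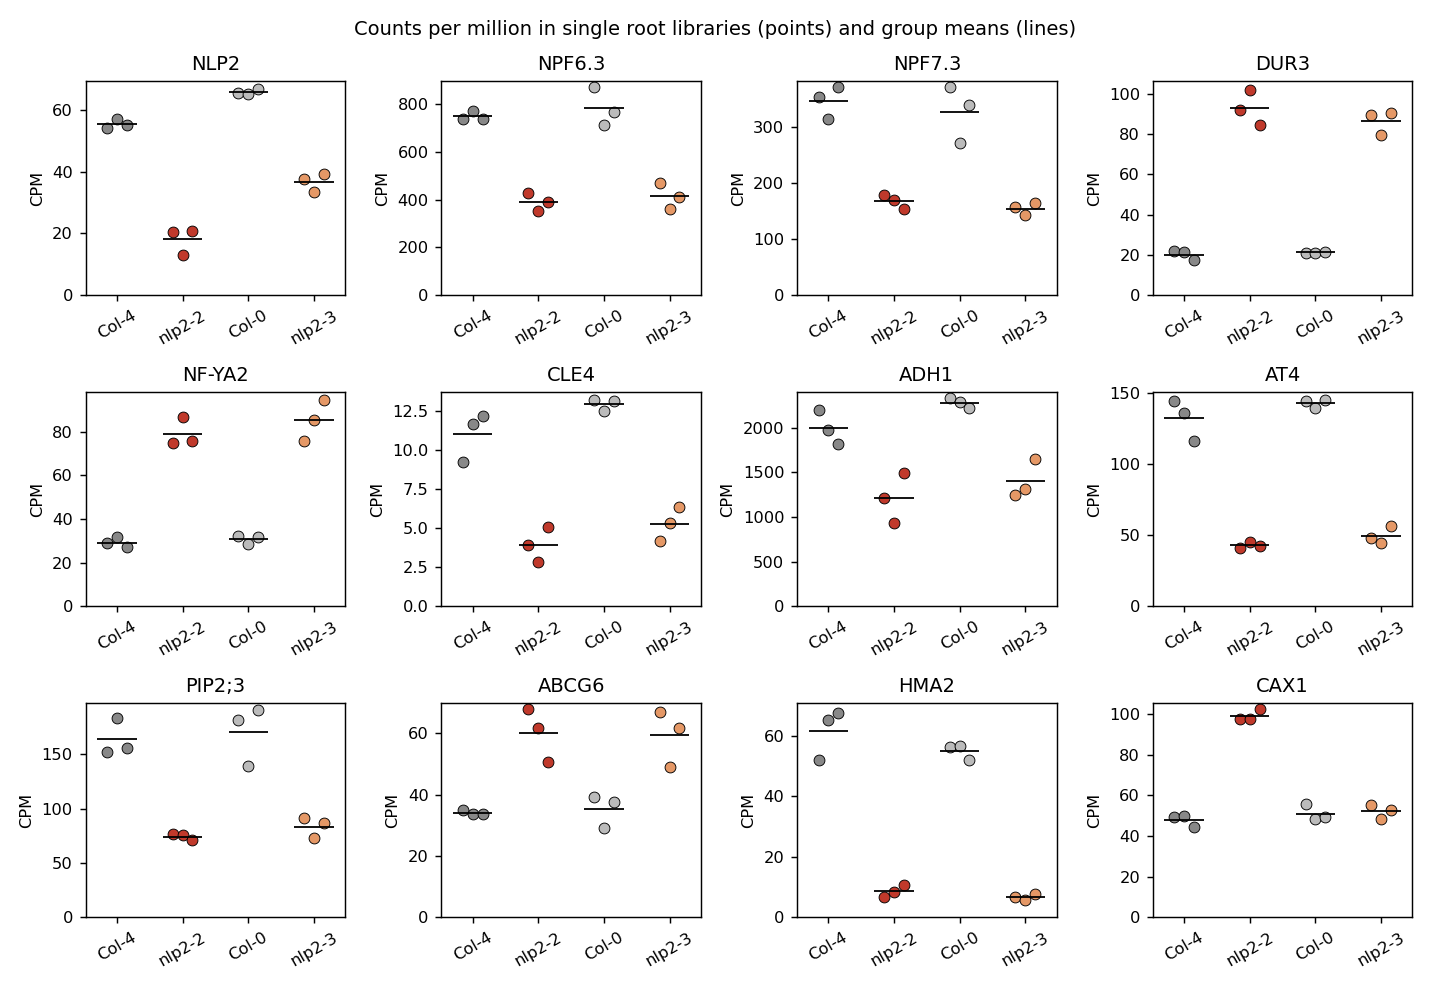
CPM of 12 genes (vertical axes, from 0) in the single root libraries of Col-4, nlp2-2, Col-0 and nlp2-3; points are libraries and lines group means of 3. In all 12 panels the nlp2-2 points lie clear of the Col-4 points, and in 11 of them the nlp2-3 mean lies to the same side of the Col-0 mean; in the CAX1 panel these means are alike.

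A minority of the genes that supply electrons and carbon to nitrate assimilation fell, against 3.91% of all genes. In non-green tissue, the oxidative pentose phosphate pathway makes NADPH and root ferredoxin-NADP reductases pass its electrons to nitrite reductase. Of 9 tested members of this list 4 fell and none rose (44.4% called, median -0.41), a count that was 2 without nlp2-2 library 2 and 7 against Col-0. RFNR1 was at 118, 117 and 116 CPM in Col-4 and 80.2, 67.5 and 80.8 CPM in nlp2-2 (-0.62 ± 0.08, adjusted p = 4.5e-05). RFNR2, the other reductase, was at 892, 910.5 and 818 CPM and 714, 575 and 616 CPM (-0.46 ± 0.10, adjusted p = 0.0054). The glucose-6-phosphate dehydrogenase gene G6PD2 was at -0.41 and AT1G64190, annotated as a 6-phosphogluconate dehydrogenase family protein, at -0.33 (adjusted p = 0.0029 and 0.014). Of 14 organic acid genes 4 fell and none rose (28.6% called): the tonoplast dicarboxylate transporter TDT (33.3, 36.7 and 32.7 CPM against 17.6, 19.6 and 15.5 CPM, -0.96 ± 0.14, adjusted p = 0.00023), the phosphoenolpyruvate carboxylases PPC2 (-0.79) and PPC3 (-0.63) and the carboxylase kinase PPCK2 (-0.69), with adjusted p = 0.00014, 4.9e-05 and 0.00034. PPC3 was the most abundant of these, at 668, 639 and 651 CPM in Col-4 and 472, 370.4 and 420 CPM in nlp2-2. With single libraries left out, the call was lost for RFNR2 (nlp2-2 2, adjusted p = 0.0509) and AT1G64190 (Col-4 1 and 2, nlp2-2 2, adjusted p up to 0.112).

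Among 28 regulators of nitrate responses 6 rose and 5 fell (39.3% called against 7.12% of all genes). The 6 that rose are the NF-YA genes on the list, which holds 6 of the 10 genes of that family and was drawn up with earlier results known. NF-YA proteins are subunits of the CCAAT-box binding factor NF-Y, and their transcripts are known targets of the microRNA miR169. NF-YA10 was at 7.502, 6.76 and 6.396 CPM in Col-4 and 19.0, 25.4 and 23.1 CPM in nlp2-2 (1.71 ± 0.13, adjusted p = 1.4e-07). NF-YA2 was at 28.8, 31.7 and 27.1 CPM and 74.6, 86.5 and 75.7 CPM (1.44 ± 0.09, adjusted p = 7.0e-09). NF-YA3 was at 36.8, 37.0 and 34.3 CPM and 76.0, 83.3 and 73.2 CPM (1.105 ± 0.09, adjusted p = 1.7e-07). Each mutant library exceeded 2 times the wild-type mean for these genes. NF-YA5 (1.21), NF-YA8 (0.41) and NF-YA1 (0.33) rose less or from lower levels (adjusted p = 0.0018, 0.0059 and 0.032). The family's remaining members were looked at after these values were seen. NF-YA6 (0.75) and NF-YA9 (0.46) rose (adjusted p = 0.00025 and 0.0064), whereas NF-YA7, at 0.53, and NF-YA4, at 0.19, were not called (adjusted p = 0.073 and 0.2). Calls ended by the loss of 1 library were those of NF-YA1 (Col-4 1, 2 and 3, nlp2-2 1 and 2, adjusted p up to 0.157). NF-YA1 was not called against Col-0 (adjusted p = 0.0542).

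The regulators that fell are known from nitrate-treated roots. ANR1, a MADS-box gene linked to lateral root growth towards nitrate, was at 106, 115 and 84.9 CPM in Col-4 and 52.9, 53.4 and 59.0 CPM in nlp2-2 (-0.89 ± 0.16, adjusted p = 0.0029). BT1, a BTB-TAZ scaffold protein gene, was at 80.4, 109 and 83.5 CPM and 55.7, 47.3 and 48.7 CPM (-0.84 ± 0.13, adjusted p = 0.00059). LBD38 and LBD39, repressors of nitrogen-responsive genes, fell by 1.28-fold and 1.25-fold (adjusted p = 0.021 and 0.0057), and AT3G25790, a Myb-like transcription factor gene, was at -0.61 (adjusted p = 0.0024). CLE genes encode short secreted signalling peptides, several of which limit lateral root growth under nitrogen shortage. Of 21 tested CLE genes (30 in the table) 4 fell and none rose (19% called against 7.12% of all genes). CLE4 was at 9.22, 11.7 and 12.2 CPM in Col-4 and 3.93, 2.81 and 5.07 CPM in nlp2-2 (-1.49 ± 0.18, adjusted p = 2.7e-05). CLE2 was at 25.9, 31.4 and 28.7 CPM and 15.8, 16.03 and 14.1 CPM (-0.91 ± 0.17, adjusted p = 0.0026). CLE5 (-1.24 ± 0.24) and CLE6 (-0.93 ± 0.19) also fell (adjusted p = 0.0028 and 0.0039), and CLE4, CLE5 and CLE6 are near-identical neighbours whose reads may be split between them. The call depended on single libraries for LBD38 (Col-4 2 and 3, nlp2-2 1, 2 and 3, adjusted p up to 0.104). BT1 was not called against Col-0 (adjusted p = 0.634).

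Genes of the low-oxygen response were lower nearly throughout. Of 18 tested members 16 were called lower and none higher (88.9% called against 7.12% of all genes, median -0.76). Roots short of oxygen switch to fermentation, and group VII ERF factors, which plant cysteine oxidases mark for breakdown when oxygen is present, drive that switch. Of these factors, HRE2 was at 23.2, 17.9 and 18.8 CPM in Col-4 and 6.58, 5.90 and 10.8 CPM in nlp2-2 (-1.37 ± 0.20, adjusted p = 0.00034). RAP2.3 was at 164, 156 and 164 CPM and 81.2, 85.5 and 95.4 CPM (-0.89 ± 0.08, adjusted p = 7.7e-07). HRE1 (-0.51) and RAP2.2 (-0.21) fell less (adjusted p = 0.0028 and 0.016). The oxygen sensors fell together with them, PCO2 at -0.86 and PCO1 at -0.42 (adjusted p = 0.0024 and 0.003). With single libraries left out, the call was lost for RAP2.2 (Col-4 2, nlp2-2 2 and 3, adjusted p up to 0.0914). RAP2.2 was not called against Col-0 (adjusted p = 0.0718).

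Fermentation genes fell as well. PDC2, a pyruvate decarboxylase, was at 89.5, 82.3 and 72.1 CPM in Col-4 and 37.8, 32.2 and 45.4 CPM in nlp2-2 (-1.08 ± 0.13, adjusted p = 3.3e-05). ADH1, alcohol dehydrogenase, was at 2202, 1972 and 1820 CPM and 1211, 937 and 1489 CPM (-0.72 ± 0.14, adjusted p = 0.0031). GLB1, a haemoglobin that scavenges nitric oxide, was at 522, 499 and 448 CPM and 257, 204 and 301 CPM (-0.95 ± 0.13, adjusted p = 0.00013). Mutant library 3 was the highest of the mutant libraries and library 2 the lowest for all 3 of these genes, yet the groups did not overlap. PDC1 (-0.80 ± 0.17, adjusted p = 0.0094), the repressor gene HRA1 (-0.81 ± 0.17, adjusted p = 0.007), the LOB-domain gene LBD41 (-0.59, adjusted p = 0.0059) and the ethylene receptor ETR2 (-0.42, adjusted p = 0.0014) were lower too. The exceptions among the 18 were RAP2.12, at 0.09, and SRO5, at -0.41, neither of them called. Oxygen itself was not measured. AT3G11930, annotated as an adenine nucleotide alpha hydrolases-like superfamily protein and on none of the lists, fell from 194, 170.3 and 159 CPM to 60.3, 48.5 and 73.2 CPM (-1.53 ± 0.16, adjusted p = 3.8e-05) and was chosen after its values were seen, because it is shown with the next sequences. PDC1 was not called with the spread taken from the 6 libraries alone (adjusted p = 0.0892).

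For the hypoxia-responsive promoter element, a loose pattern was searched on both strands: AAACCA, 3 free bases and GC. The pattern was found in the 250 bases before the start of 222 of 27443 genes (0.809%). Because 3 bases were left free, a match does not show that the element itself is present. It was present before 1 of the 18 low-oxygen genes, ADH1, and before 8 of 791 called lower genes with a promoter window (1.01%), a share close to that of all tested genes (0.852%). Shown are the stretches before ADH1, before the aquaporin gene NIP2;1, which is known to be induced by low oxygen, and before AT3G11930. These genes fell and hold the pattern, given in capitals, 5′ to 3′ on the gene's strand, from RefSeq's TAIR10.1 assembly.
ADH1, chr1:28975059-28975129, plus strand: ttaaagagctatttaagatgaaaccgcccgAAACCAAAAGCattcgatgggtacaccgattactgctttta
NIP2;1, chr2:14516048-14516118, minus strand: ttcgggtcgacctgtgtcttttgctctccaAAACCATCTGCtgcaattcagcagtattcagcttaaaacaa
AT3G11930, chr3:3776100-3776170, plus strand: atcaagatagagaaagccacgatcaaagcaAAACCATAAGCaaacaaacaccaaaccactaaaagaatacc
The pattern ends 155, 89 and 36 bases before the annotated start of the gene, in that order. The nitrate-responsive element, searched on both strands as GAC, 1 free base, CTT, 10 free bases and AAG, was found before 40 of all genes (0.146%), before none of the genes of the 3 nitrate and nitrogen lists, and before 3 of the 791 called lower genes (0.379%).

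Phosphate starvation genes were lower in part. Of 31 tested members 11 were called lower and none higher (35.5% called against 7.12% of all genes, median -0.28). AT4, a non-coding RNA that soaks up the microRNA miR399, was at 144, 136 and 116 CPM in Col-4 and 41.0, 45.0 and 42.7 CPM in nlp2-2 (-1.62 ± 0.14, adjusted p = 3.2e-06), and its relative IPS1 was at 2.77, 3.15 and 3.62 CPM and 0.197, 0.599 and 0.540 CPM (-2.82 ± 0.46, adjusted p = 0.00054). SPX1, a phosphate-dependent inhibitor of the factor PHR1, was at 43.2, 52.0 and 74.5 CPM and 13.5, 16.6 and 24.2 CPM (-1.65 ± 0.31, adjusted p = 0.0049). All mutant libraries were below all wild-type libraries for these genes, although SPX1 spread widely within each group. The acid phosphatase gene PAP17 (-1.45 ± 0.15), the phosphatase gene PS2 (-0.87 ± 0.11) and the phosphate exporter genes PHO1;H1 (-0.74 ± 0.12) and PHO1 (-0.49 ± 0.08) fell as well (adjusted p = 4.0e-06, 6.8e-05, 0.00073 and 0.00072). PHR1, the central activator, was lower by only 1.14-fold (-0.19 ± 0.06, adjusted p = 0.041), and the importer PHT1;1, at 509, 507 and 456 CPM and 425, 379 and 405 CPM, was not called (adjusted p = 0.36). The call depended on single libraries for PHR1 (Col-4 1, 2 and 3, nlp2-2 2 and 3, adjusted p up to 0.182). PHR1 was not called without the filter on low counts or with the spread taken from the 6 libraries alone (adjusted p up to 0.0825).

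PHR1 binds the P1BS element, searched here on both strands as GNATATNC. It occurred within 250 bases before 8 of the 32 listed phosphate genes, and before 5.46% of all genes. Among called lower genes of any kind the share was 7.33%, among called higher genes 5.86% and among all tested genes 5.47%. Of the 11 phosphate genes that fell, AT4 and PS2 hold it, and their stretches are shown for that reason, with the element in capitals.
AT4, chr5:894526-894581, plus strand: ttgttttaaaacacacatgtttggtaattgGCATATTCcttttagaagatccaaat
PS2, chr1:27466528-27466595, minus strand: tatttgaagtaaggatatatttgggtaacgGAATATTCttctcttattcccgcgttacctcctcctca
The element lies 18 bases before the start of AT4 and 209 bases before that of PS2. Among the genes that hold it and were not called is SPX3, at 1.48, 1.42 and 1.03 CPM and 2.56, 1.43 and 1.08 CPM.

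Transport genes of other ions were called in some of the lists. HMA2, a pump that loads zinc into the xylem, fell 7.13-fold, from 52.0, 65.2 and 67.7 CPM to 6.83, 8.48 and 10.7 CPM (-2.83 ± 0.25, adjusted p = 6.7e-06). SKOR, the outward potassium channel of the stele, was at 37.6, 41.2 and 40.6 CPM in Col-4 and 12.7, 11.8 and 13.2 CPM in nlp2-2 (-1.67 ± 0.15, adjusted p = 1.6e-06). HKT1, which removes sodium from xylem sap, was at 111, 133 and 129 CPM and 57.4, 66.7 and 61.5 CPM (-1.01 ± 0.09, adjusted p = 1.6e-06). For these genes the mutant mean was at most 0.5 of the wild-type mean. The boron exporter BOR1 (-0.47) and the sulfate transporter genes SULTR2;1 (-0.72) and SULTR4;2 (-0.69) also fell (adjusted p = 0.0043, 6.7e-05 and 0.0014), as did the zinc importer genes ZIP5 (-0.85), ZIP4 (-0.56) and ZIP3 (-0.46) (adjusted p = 0.00055, 0.03 and 0.0066). Counts were 4 lower of 12 zinc genes, 3 of 10 potassium, sodium and boron genes, 2 of 12 sulfate genes and 1 of 24 iron genes, with none higher in any of these lists, against 3.91% lower among all genes. The shares called were 33.3%, 30%, 16.7% and 4.17%, so the iron list was close to all genes. The zinc count was 2 without Col-4 library 2 or nlp2-2 library 2, the sulfate count 8 against Col-0, and the iron count 4 with the replicate number as a block; the iron gene called was AT3G12900, a 2-oxoglutarate-dependent oxygenase (-1.47 ± 0.32, adjusted p = 0.011). SKOR and PHO1 are also the stele and pericycle markers that fell, so that the summed stele markers went from 815 to 935 CPM in Col-4 to 604 to 657 CPM in nlp2-2, while the third stele marker, the transcription factor SHR, was at 41.0, 45.3 and 43.5 CPM and 44.5, 46.2 and 42.6 CPM (adjusted p = 0.82). Summed xylem markers overlapped, at 397 to 473 CPM and 362 to 427 CPM, and none of the 6 was called. Dependence on 1 library was seen for ZIP4 (Col-4 1, 2 and 3, nlp2-2 1 and 2, adjusted p up to 0.168) and ZIP3 (Col-4 2, nlp2-2 2, adjusted p up to 0.0577). AT3G12900 was not called with the spread taken from the 6 libraries alone (adjusted p = 0.108).

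Part of the water channel genes fell. Of 20 tested aquaporin genes 5 were lower and none higher (25% called against 7.12% of all genes, median -0.16). PIP2;3 was at 152, 183 and 156 CPM in Col-4 and 76.4, 75.5 and 71.2 CPM in nlp2-2 (-1.14 ± 0.11, adjusted p = 2.9e-06). PIP2;1, at 1904, 2060 and 1803 CPM and 1586, 1544 and 1361 CPM, fell 1.28-fold (-0.36 ± 0.09, adjusted p = 0.017), and PIP1;1 (-0.50), PIP1;2 (-0.31) and NIP2;1 (-0.89) fell as well (adjusted p = 0.0082, 0.019 and 0.014). Other abundant members, such as TIP1;1 (-0.37) and PIP2;2 (-0.22), were not called, although TIP1;1 was called lower with the replicate number as a block (adjusted p = 0.0298). The PIP genes are close copies of each other, so their single values carry the uncertainty of shared reads. With 1 library left out the count ranged from 2 to 5, and it was 2 without Col-4 1, Col-4 2, nlp2-2 2 or nlp2-2 3. Leaving out 1 library ended the call of PIP2;1 (Col-4 1 and 2, nlp2-2 2 and 3, adjusted p up to 0.0993), PIP1;1 (Col-4 2, nlp2-2 3, adjusted p up to 0.0644), PIP1;2 (Col-4 1 and 2, nlp2-2 2 and 3, adjusted p up to 0.102) and NIP2;1 (Col-4 1, nlp2-2 1 and 2, adjusted p up to 0.0729). NIP2;1 was not called with the spread taken from the 6 libraries alone (adjusted p = 0.0611).

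Suberin genes moved the other way. Suberin is a waxy polyester laid around endodermal cells that limits the passage of water and ions. All 18 tested members had a positive log2 fold change. Of these, 10 were called higher and none lower (55.6% called against 7.12% of all genes, median 0.47). ABCG6, a transporter of suberin building blocks, was at 35.02, 33.8 and 33.6 CPM in Col-4 and 67.8, 61.6 and 50.6 CPM in nlp2-2 (0.81 ± 0.13, adjusted p = 0.00083). CYP86B1, a fatty acid hydroxylase, was at 37.1, 37.8 and 31.8 CPM and 60.6, 55.3 and 49.5 CPM (0.63 ± 0.10, adjusted p = 0.00034). FAR4, a fatty acyl reductase, was at 53.0, 55.3 and 46.8 CPM and 83.5, 86.1 and 73.3 CPM (0.65 ± 0.09, adjusted p = 0.00012). Changes were small but separated the groups in each of these genes, also in CYP86A1 (0.47), GPAT5 (0.48) and FAR5 (0.49), with adjusted p = 0.0018, 0.0036 and 0.0019. The number of suberin genes called was 6 without Col-4 library 3 and 6 without nlp2-2 library 1, and 11 without nlp2-2 library 3. Summed endodermis markers, which include the Casparian strip genes, overlapped at 228 to 297 CPM in Col-4 and 256 to 338 CPM in nlp2-2, and none of the 8 was called; their part in the suberin values was not tested. Summed root hair and epidermis markers were at 140 to 199 CPM in Col-4 and 207 to 260 CPM in nlp2-2, with 1 of 9 called (0 to 2 with 1 library left out), the wall protein gene COBL9 (0.58 ± 0.16, adjusted p = 0.037). A single left-out library ended the call of COBL9 (Col-4 1 and 3, nlp2-2 1 and 2, adjusted p up to 0.154). COBL9 was not called without the filter on low counts or with the spread taken from the 6 libraries alone (adjusted p up to 0.097).

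**Figure D3:**
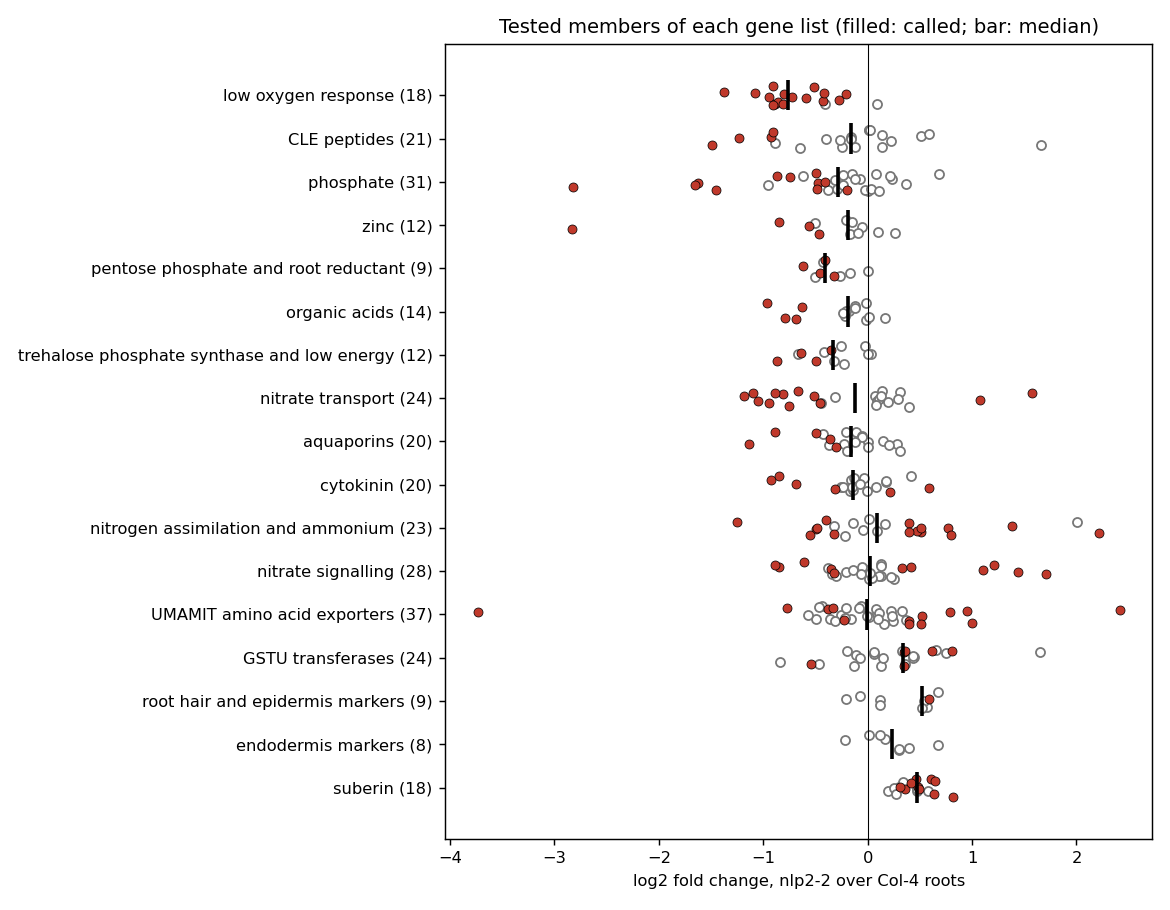
Log2 fold change of nlp2-2 over Col-4 roots (horizontal axis) for the tested members of 17 lists (rows, number tested in brackets); filled points are called, open points are not, and bars are medians. The low-oxygen row lies left of 0 apart from 1 open point, the suberin row lies right of 0, and the nitrogen assimilation row spreads to both sides.

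Sugar genes were lower in part, 7 of 23 against 1 higher (34.8% called, 7.12% of all genes). The count of lower members was 4 without Col-4 library 1 or nlp2-2 library 2. The sucrose synthases SUS1 and SUS4, which split sucrose for respiration and belong to the low-oxygen list too, were at -0.91 and -0.91 (adjusted p = 7.1e-05 and 0.0013). BAM5, the main beta-amylase outside the plastid, was at 14.8, 19.4 and 12.6 CPM in Col-4 and 0.737, 1.24 and 1.94 CPM in nlp2-2 (-3.58 ± 0.28, adjusted p = 1.7e-07). The sucrose importer SUC1 was at 191, 196 and 243 CPM and 132, 138 and 142 CPM (-0.62 ± 0.11, adjusted p = 0.0021). SUS3 rose from a low level (1.03 ± 0.27, adjusted p = 0.025). Of 12 genes of trehalose phosphate synthases and of the low-energy response 4 fell and none rose (33.3% called), a count that was 1 without Col-4 1, Col-4 2, nlp2-2 2 or nlp2-2 3, 2 without nlp2-2 1 and 1 against Col-0: DIN10, a dark-inducible gene, was at 267, 286 and 248 CPM and 147, 139 and 152 CPM (-0.87 ± 0.12, adjusted p = 0.00017), and TPS8, TPS10 and TPS6 were at -0.64, -0.49 and -0.35 (adjusted p = 0.024, 0.034 and 0.026). TPPJ, a trehalose phosphate phosphatase, was at 164, 126 and 144 CPM and 58.1, 41.0 and 66.2 CPM (-1.39 ± 0.18, adjusted p = 0.00025). It was among the most abundant called genes with a symbol that fell at least 2-fold. Leaving out 1 library ended the call of SUS3 (Col-4 1 and 2, nlp2-2 1 and 2, adjusted p up to 0.117), TPS8 (Col-4 1 and 2, nlp2-2 2 and 3, adjusted p up to 0.102), TPS10 (Col-4 1 and 2, nlp2-2 1, 2 and 3, adjusted p up to 0.156) and TPS6 (Col-4 1 and 2, nlp2-2 1, 2 and 3, adjusted p up to 0.155). SUS3 was not called by limma on log2(FPKM + 1) (adjusted p = 0.071). TPS8 was not called against Col-0 (adjusted p = 0.399). TPS10 was not called without the filter on low counts or against Col-0 (adjusted p up to 0.325). TPS6 was not called against Col-0 or by limma on log2(FPKM + 1 or 0.1) (adjusted p up to 0.0609).

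Of the hormone lists, 30% of the cytokinin genes and 18.8% each of the auxin and jasmonate genes were called, against 7.12% of all genes. Cytokinins made in roots travel to the shoot and report the nitrogen supply. IPT3, the nitrate-inducible first enzyme of their synthesis, was at 56.7, 67.8 and 55.3 CPM in Col-4 and 31.4, 33.6 and 29.3 CPM in nlp2-2 (-0.93 ± 0.11, adjusted p = 2.0e-05). The isoenzyme gene IPT5 (-0.69), the hydroxylase CYP735A1, which makes trans-zeatin forms (-0.85), and ABCG14, which exports cytokinin towards the shoot (-0.31), fell as well (adjusted p = 0.0022, 0.00031 and 0.014). CKX5, a cytokinin-degrading oxidase, rose from 11.4, 13.8 and 12.2 CPM to 17.6, 20.5 and 18.1 CPM (0.59 ± 0.11, adjusted p = 0.0022), and the response regulator ARR4 rose 1.16-fold (adjusted p = 0.042). In all, 4 of 20 cytokinin genes fell and 2 rose, the second count being 1 with any 1 of the 6 libraries left out. The auxin importer LAX3 rose by 0.31 and the nitrilase NIT1 fell at -0.53 (adjusted p = 0.0013 and 0.00093), among 16 auxin genes with 2 higher and 1 lower (2 lower without nlp2-2 library 2). Of the jasmonate list, whose count was 1 without nlp2-2 library 2, 3 of 16 fell, all of them JAZ repressor genes: JAZ9 (-1.36 ± 0.28), JAZ5 (-0.73 ± 0.20) and JAZ6 (-0.55 ± 0.13), with adjusted p = 0.0043, 0.034 and 0.011. JAZ4, of the same family, rose from 4.30, 5.57 and 4.79 CPM to 12.2, 10.96 and 13.3 CPM (1.31 ± 0.16, adjusted p = 4.5e-05). A single left-out library ended the call of ABCG14 (Col-4 2 and 3, nlp2-2 1, adjusted p up to 0.0951), ARR4 (Col-4 1, 2 and 3, nlp2-2 1, 2 and 3, adjusted p up to 0.133), JAZ5 (Col-4 2 and 3, nlp2-2 1, 2 and 3, adjusted p up to 0.177) and JAZ6 (nlp2-2 2, adjusted p = 0.0851). ABCG14 was not called against Col-0 (adjusted p = 0.057). JAZ5 was not called against Col-0 or by limma on log2(FPKM + 1) (adjusted p up to 0.148).

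Amino acid transporters changed in both directions. The UMAMIT family holds membrane proteins, several of which export amino acids. Of its 37 tested members 8 were higher and 5 lower (35.1% called against 7.12% of all genes, median -0.01). UMAMIT36 was nearly lost, at 12.5, 13.3 and 9.39 CPM in Col-4 and 0.688, 1.01 and 0.917 CPM in nlp2-2 (-3.74 ± 0.30, adjusted p = 5.4e-07). UMAMIT17 rose from 34.9, 52.2 and 63.8 CPM to 86.9, 124 and 89.9 CPM (0.99 ± 0.18, adjusted p = 0.0028), and UMAMIT12 by 0.40 (adjusted p = 0.011). UMAMIT22 fell at -0.77 (adjusted p = 0.00036). The members were thus split. The count of higher members was 5 without Col-4 library 1 or nlp2-2 library 2, and that of lower members 3 without Col-4 2, Col-4 3 or nlp2-2 1 and 9 against Col-0. Of the amino acid permeases and cationic amino acid transporters, 2 of 19 rose, among them AAP6 (0.42, adjusted p = 0.0061). That is 10.5% called, near the 7.12% of all genes, and the count was 1 without Col-4 library 3 or nlp2-2 library 1. Dependence on 1 library was seen for UMAMIT12 (Col-4 1, nlp2-2 2, adjusted p up to 0.0729). UMAMIT17 was not called with the spread taken from the 6 libraries alone (adjusted p = 0.132).

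Of the detoxification and defence lists, tau-class glutathione transferases had the largest share called (25% against 7.12% of all genes). Tau-class glutathione transferases had 5 of 24 higher and 1 lower (median 0.34); the count of higher members was 3 without Col-4 1, Col-4 3 or nlp2-2 1 and 8 with the replicate number as a block. GSTU8 was at 23.3, 20.5 and 17.6 CPM and 39.0, 36.1 and 32.0 CPM (0.81 ± 0.15, adjusted p = 0.0031). Among 26 glucosinolate genes (11.5% called), CYP79B2, which starts indole glucosinolates, rose 1.22-fold (adjusted p = 0.015), the beta-glucosidase gene PYK10 rose 1.38-fold (adjusted p = 0.046), and MYB28, the regulator of aliphatic glucosinolates, fell 1.22-fold (adjusted p = 0.018); none of these was called without nlp2-2 library 2 or Col-4 library 2, and 7 members were higher against Col-0. The flavonoid list had a median of 0.71, yet only PAL1, at the entry of the phenylpropanoid pathway, was called among 10 (0.32 ± 0.07, adjusted p = 0.0084), and 2 members were with the replicate number as a block or without Col-4 library 3. Of 16 salicylate genes 1 was called, AZI1, a lipid-transfer-like protein gene of systemic immunity, which fell from 19.1, 22.8 and 18.25 CPM to 3.15, 5.99 and 8.04 CPM (-1.81 ± 0.26, adjusted p = 0.00034). None of 20 cysteine-rich receptor kinases, 5 heat shock, 7 touch and wounding or 7 senescence genes was called by edgeR's quasi-likelihood test. WRKY factors had 2 higher and 3 lower of 63 (7.94% called, close to all genes), among them WRKY21 (-0.45, adjusted p = 0.00038); with any 1 library left out 1 was lower, and the higher count was 0 without Col-4 library 1 and 1 without Col-4 library 2. Wall-loosening genes were called in both directions. Of 20 expansins 2 were higher and 1 lower (15% called), and of 27 xyloglucan enzyme (XTH) genes 1 was higher and 4 lower (18.5% called). The count of lower XTH genes was 2 to 4 with 1 library left out and 1 to 5 under other settings. Among the called genes, the expansins EXPA15 (0.70) and EXPB1 (0.61) rose and XTH21 fell (-0.95), with adjusted p = 0.00011, 0.00049 and 9.3e-05. The clock list had the evening gene GI higher (0.30, adjusted p = 0.013) and RVE1, a morning-phased factor, lower (-0.77, adjusted p = 0.0019) among 15. Leaving out 1 library ended the call of CYP79B2 (Col-4 2, nlp2-2 2, adjusted p up to 0.0744), PYK10 (Col-4 1, 2 and 3, nlp2-2 1, 2 and 3, adjusted p up to 0.168), MYB28 (Col-4 2 and 3, nlp2-2 1, 2 and 3, adjusted p up to 0.128), PAL1 (nlp2-2 1, adjusted p = 0.053) and GI (Col-4 1 and 3, nlp2-2 1, adjusted p up to 0.09). PYK10 was not called without the filter on low counts or against Col-0 (adjusted p up to 0.162).

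Of the largest changes in called genes with a symbol and a mean of at least 5 CPM, several lie outside these lists. AAE12, an acyl-activating enzyme, was at 10.03, 10.2 and 8.27 CPM in Col-4 and 1.92, 1.11 and 1.19 CPM in nlp2-2 (-2.75 ± 0.29, adjusted p = 7.7e-06). MLP28, a major latex protein-like gene, was at 17.9, 18.8 and 13.6 CPM and 3.49, 1.80 and 3.35 CPM (-2.55 ± 0.29, adjusted p = 2.9e-05). MLP328, of the same family, went the other way, from 708, 769.8 and 624 CPM to 1692, 1822 and 1549 CPM (1.27 ± 0.15, adjusted p = 7.1e-05). Among called genes with a symbol, MLP328 was the most abundant that rose at least 2-fold. It may share reads with its neighbour MLP329. The lectin gene JAL23 was lower with a wide spread between mutant libraries, at 12.8, 13.8 and 14.6 CPM and 0.934, 2.86 and 5.94 CPM (-2.10 ± 0.48, adjusted p = 0.014). FRO5, a metal-reducing oxidase, AHG1, a phosphatase of abscisic acid signalling, and FSD1, an iron superoxide dismutase, fell at -1.72, -1.61 and -1.41 (adjusted p = 0.0015, 9.3e-05 and 1.7e-07). FSD1 was the largest pool among them, at 208, 219 and 176 CPM and 70.8, 80.9 and 75.7 CPM. A single left-out library ended the call of JAL23 (nlp2-2 2, adjusted p = 0.0706). JAL23 was not called with the spread taken from the 6 libraries alone (adjusted p = 0.0974).

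Among the largest rises, LAS1, lanosterol synthase, was at 9.17, 7.72 and 8.95 CPM in Col-4 and 26.2, 27.04 and 23.4 CPM in nlp2-2 (1.57 ± 0.14, adjusted p = 6.5e-07). The cytochrome P450 genes CYP712A2 (6.403, 7.31 and 7.11 CPM against 19.4, 25.1 and 16.1 CPM, 1.54 ± 0.17, adjusted p = 7.1e-06) and CYP76G1 (5.21, 7.17 and 7.07 CPM against 17.98, 22.8 and 15.9 CPM, 1.54 ± 0.15, adjusted p = 3.1e-06) rose 2.92-fold and 2.91-fold. CYP716A2 rose from 4.63, 4.25 and 2.24 CPM to 9.19, 10.5 and 6.04 CPM (1.22 ± 0.32, adjusted p = 0.027), and so did its neighbours on chromosome 5, CYP716A1 (0.80, adjusted p = 0.0011) and AT5G36130, another cytochrome P450 gene (1.39, adjusted p = 0.02), which may share reads. Dependence on 1 library was seen for CYP716A2 (Col-4 2 and 3, nlp2-2 1 and 2, adjusted p up to 0.124) and AT5G36130 (Col-4 1 and 3, nlp2-2 2, adjusted p up to 0.108).

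The nlp2-3 allele was compared with Col-0, a contrast that shares no library with that of nlp2-2 and Col-4, and gave 1401 called genes (6.84% of those tested, 3.36% higher and 3.48% lower). The effects were shared to a large degree: 892 genes were called with the same sign in both alleles, 61.2% of the nlp2-2 list and 63.7% of the nlp2-3 list, and 3 in opposite directions. Of the 1458 genes called in nlp2-2, 97.5% had the same sign in nlp2-3. Counts were alike there for some lists, with 16 of 18 low-oxygen genes lower, 11 of 31 phosphate genes lower, 5 of 20 aquaporins lower, 4 of 21 CLE genes lower and 9 of 18 suberin genes higher. They were unlike for others: of the glucosinolate genes 8 were higher and none lower in nlp2-3, of the flavonoid genes 3 were higher, and of the jasmonate genes none was called. A direct test of the difference between both effects called 13 of 20486 genes (0.0635%), 8 higher and 5 lower. No glucosinolate, flavonoid or jasmonate gene of the lists was among them, so the unlike counts do not show a difference between the alleles. With the replicate number as a block, the direct test called 13 higher and 4 lower.

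Of these 13 genes, 3 have known roles in calcium transport or sensing. CAX1, a vacuolar calcium/proton exchanger, was at 49.5, 49.8 and 44.5 CPM in Col-4 and 97.5, 97.7 and 102 CPM in nlp2-2 (1.05 ± 0.07, adjusted p = 1.0e-08), against 55.7, 48.1 and 49.2 CPM in Col-0 and 55.5, 48.5 and 52.8 CPM in nlp2-3. Its relative CAX3 was at 19.2, 17.2 and 15.4 CPM and 42.2, 36.7 and 37.0 CPM (1.16 ± 0.11, adjusted p = 2.7e-06), against 17.4, 13.7 and 17.6 CPM in Col-0 and 16.6, 14.3 and 16.6 CPM in nlp2-3. CBL8, a calcium sensor, was at 5.02, 5.07 and 3.35 CPM and 11.9, 11.7 and 10.2 CPM (1.33 ± 0.21, adjusted p = 0.00037), against 5.68, 3.67 and 6.44 CPM in Col-0 and 4.76, 2.85 and 4.30 CPM in nlp2-3. In each case all nlp2-2 libraries were above those of the other 3 groups, which overlapped each other. The differences between the alleles were 1.01 ± 0.09, 1.195 ± 0.16 and 1.74 ± 0.30 (adjusted p = 8.9e-06, 0.0013 and 0.022), and the difference for CBL8 was not called in 9 of 20 alternatives, among them those without Col-0 1 or 3, Col-4 1 or 3, nlp2-2 1 or 2, or nlp2-3 2 or 3 (adjusted p from 0.0501 to 0.104). The means of CAX1 and CAX3 in nlp7-1 were 49.0 and 13.6 CPM, near those of Col-0. Among other called genes with a calcium annotation, chosen after their values were seen, AT2G46600, a calcium-binding EF-hand protein, was at 11.2, 12.9 and 15.1 CPM and 26.0, 35.3 and 29.4 CPM (1.21 ± 0.22, adjusted p = 0.0024), but its difference between alleles was not called (adjusted p = 1).

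AT4G14330, annotated as a P-loop nucleoside triphosphate hydrolase, differed between the alleles as well, at 20.8, 20.7 and 21.1 CPM in Col-4 and 8.99, 6.31 and 6.69 CPM in nlp2-2 (-1.51 ± 0.12, adjusted p = 1.7e-07) against 19.8, 25.0 and 20.6 CPM in Col-0 and 18.3, 20.4 and 21.03 CPM in nlp2-3, with a difference of -1.38 ± 0.16 (adjusted p = 0.00016). It also fell in nlp2-2 shoots (-1.56 ± 0.22, adjusted p = 6.3e-05). ARP9, an actin-related protein gene, was at 20.1, 21.3 and 17.7 CPM in Col-4 and 14, 12.6 and 13.6 CPM in nlp2-2 (-0.56 ± 0.13, adjusted p = 0.0088), against 11.9, 16.1 and 13.2 CPM in Col-0 and 21.8, 15.3 and 18.6 CPM in nlp2-3, and its difference of -0.998 ± 0.18 (adjusted p = 0.036) was not called in 13 of 20 alternatives (adjusted p up to 0.165), the replicate block among them (adjusted p = 0.0523). Dependence on 1 library was seen for ARP9 (Col-4 2, nlp2-2 2, adjusted p up to 0.0599). ARP9 was not called against Col-0 (adjusted p = 0.927).

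**Figure D4:**
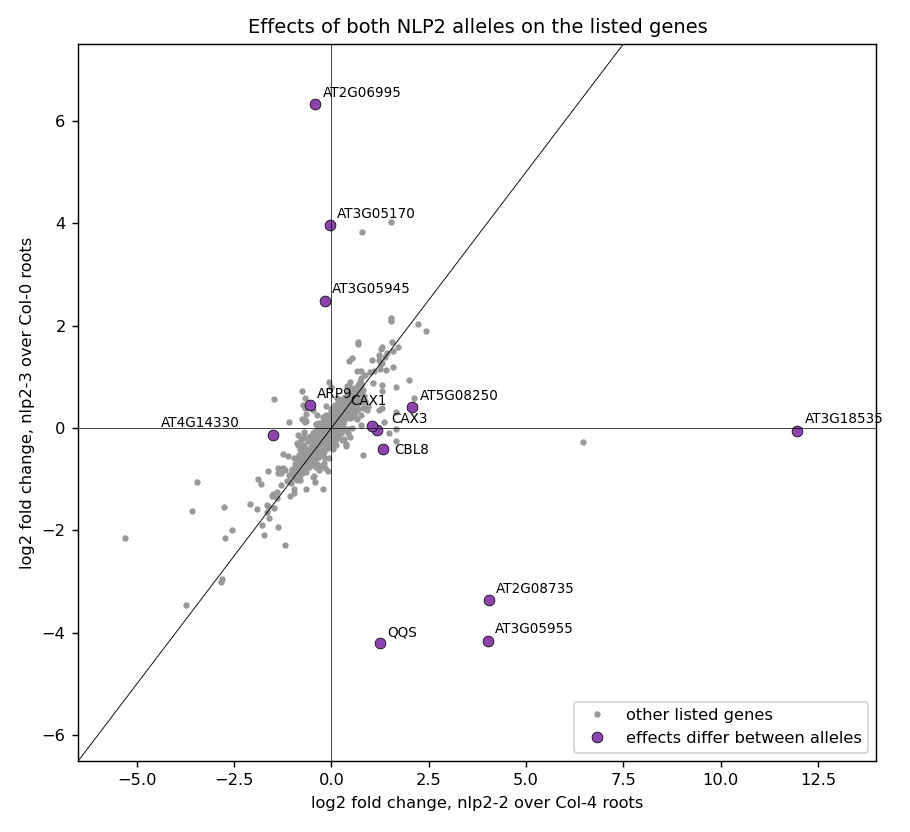
Log2 fold change of nlp2-2 over Col-4 roots (horizontal axis) against that of nlp2-3 over Col-0 roots (vertical axis) for the listed and named genes that were tested, with the line of equal effects; the 13 genes in purple differ between the alleles. CAX1, CAX3, CBL8 and AT4G14330 lie near the horizontal axis, and AT2G06995, AT3G05170 and AT3G05945 near the vertical one.

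Of the 13 genes, 7 also differed between Col-4 and Col-0, a comparison that called 8 of 20486 genes (0.0391%). AT3G18535, a tubulin-tyrosine ligase, had 0 reads in the 3 Col-4 root libraries and was at 21.9, 23.8 and 23.8 CPM in nlp2-2, at least 504-fold higher when 3 reads over the Col-4 group are taken as the floor. It was at 22.6, 24.5 and 25.0 CPM in Col-0, at 21.7, 24.8 and 23.2 CPM in nlp2-3, and 1 read was counted in the 3 Col-4 shoot libraries together against 215 to 238 reads in each nlp2-2 shoot library. AT3G18530, which overlaps it on the chromosome, had 0 reads in Col-4 roots and 7 to 16 reads in each nlp2-2 root library. AT3G18530 was at 0.729 CPM on average in Col-0. Among the 6 genotypes, AT3G18535 was thus missing from Col-4 roots only, with means of 24.6 CPM in nlp7-1 and 21.5 CPM in the double mutant. AT5G08250, a cytochrome P450 gene, was at 2.82, 3.198 and 2.505 CPM in Col-4, 11.99, 13.1 and 10.8 CPM in nlp2-2 and 10.9, 6.54 and 8.08 CPM in Col-0, and the non-coding AT3G05955 was at 0.191, 0.0914 and 0.0447, 1.62, 1.94 and 1.94 and 1.86, 1.57 and 2.29 CPM, again with nlp2-2 nearer to Col-0 than to Col-4. The allele difference of AT5G08250 was not called in 8 of 20 alternatives (adjusted p from 0.0551 to 0.093), among them those without Col-0 1, Col-4 1 or 3, nlp2-2 1 or 2, or nlp2-3 2 or 3. AT2G08735, another non-coding gene, was at 0, 0 and 0.134 CPM in Col-4 and 0.442, 0.967 and 1.13 CPM in nlp2-2, against 0.545, 0.865 and 0.549 CPM in Col-0 and 0.0490, 0.05 and 0.0699 CPM in nlp2-3.

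For 5 of the 8 genes nlp2-2 was instead at the Col-4 level. AT5G24240, a phosphatidylinositol 4-kinase-like gene, was at 6.98, 7.45 and 5.32 CPM in Col-4 and 6.73, 5.71 and 5.99 CPM in nlp2-2, against 90.4, 81.9 and 92.4 CPM in Col-0 and 90.06, 80.3 and 83.4 CPM in nlp2-3. QQS, an orphan gene that lowers starch, was at 0.526, 0.457 and 0.224 CPM, 0.737, 1.43 and 0.648 CPM, 15.5, 13.1 and 19.9 CPM and 0.784, 1 and 0.838 CPM in that order, so Col-0 alone was high. AT3G05170 was at 10.4, 10.6 and 9.21 CPM in Col-4, 8.94, 11.2 and 9.34 CPM in nlp2-2 and 1.09, 0.486 and 0.249 CPM in Col-0, and AT3G05945 and AT2G06995 were likewise lower in Col-0 than in Col-4, with log2 differences between the wild types of 2.58 and 6.27. No member of the gene lists was among the 13 or the 8, and for NPF6.3, DUR3, NF-YA2, ADH1, AT4 and PIP2;3 the change against Col-0, which uses the same nlp2-2 libraries and called 8.6% of genes (3.97% higher, 4.63% lower), was -1.01, 2.135, 1.36, -0.91, -1.74 and -1.20.

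Few genes were called in both roots and shoots. In shoots of the same genotypes 586 of 19137 genes were called (3.06%), 141 higher (0.737%) and 445 lower (2.33%). Of the genes called in roots 1206 were tested in shoots, 74 were called in the same direction (5.08% of the root list and 12.6% of the shoot list), 16 in the opposite direction, and 56.1% had the same sign. The difference of effects was tested directly over both tissues, and 569 of 21554 genes were called (2.64%). DUR3 was opposed, higher in roots and lower in shoots (-0.67 ± 0.14, adjusted p = 0.0092), with a difference of 2.89 ± 0.20 (adjusted p = 4.7e-11). NPF7.3 and NPF6.3 fell in roots and were at 0.37 and -0.05 in shoots, differences of -1.40 ± 0.17 and -0.88 ± 0.13 (adjusted p = 7.4e-06 and 0.00011). HMA2 fell in both, by less in shoots (-0.97 ± 0.11, adjusted p = 7.8e-06), with a difference of -1.85 ± 0.27 (adjusted p = 0.00013). SUS1, PDC2, SPX1, SKOR, PIP2;3 and CAX1 also differed between tissues (adjusted p = 0.0012, 0.00056, 0.011, 0.01, 0.0034 and 8.2e-08). The difference for SPX1 was not called with the spread taken from the compared groups alone (adjusted p = 0.0617), nor that for SKOR without nlp2-2 shoot library 1 (adjusted p = 0.0638). The low-oxygen list had no member called among 17 tested in shoots.

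Other genes changed in both tissues. NF-YA2, NF-YA10 and NF-YA3 rose in shoots by 1.53, 1.38 and 0.71 (adjusted p = 4.7e-08, 1.2e-08 and 0.0042). RFNR1 and G6PD2 were at -0.47 and -0.55 there (adjusted p = 0.00055 and 0.00023), and 5 of 9 reductant genes were lower in shoots against 4 of 9 in roots. NRT3.1 was lower in shoots too, at -1.25 (adjusted p = 2.8e-06). For these genes the difference between tissues was not called (adjusted p from 0.26 for NF-YA3 to 0.9 for NF-YA2). Salicylate genes were called in shoots, 11 of 18 lower, and 1 of 16 in roots.

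**Figure D5:**
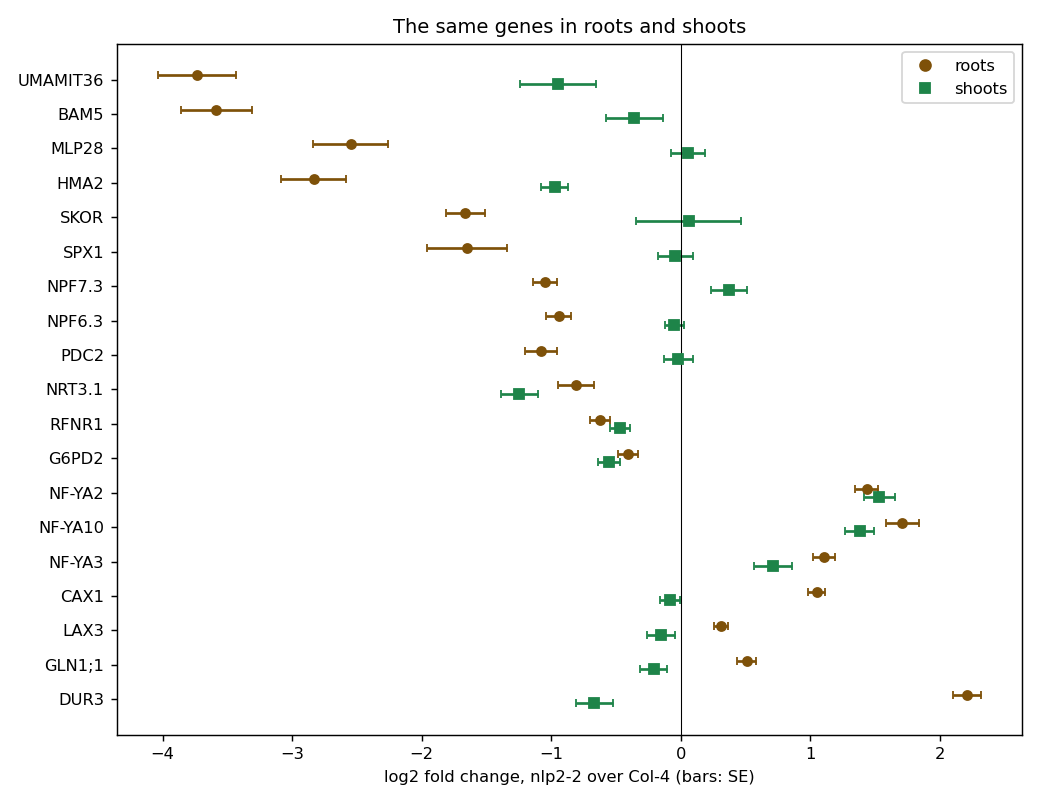
Log2 fold change of nlp2-2 over Col-4 (horizontal axis, bars are SE) in roots (circles) and shoots (squares) for 19 named genes (rows). NF-YA2, NF-YA10, NF-YA3, RFNR1 and G6PD2 move alike in both tissues, DUR3 moves in opposite directions, and CAX1, SKOR, SPX1, MLP28 and PDC2 lie near 0 in shoots.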

How the data were processed

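Total RNA of whole roots and rosettes was sequenced. The authors deposited a table of raw fragment counts per gene, made with HISAT2 and HTSeq on TAIR10 per the submitters' processing notes, and a table of FPKM values (counts scaled by gene length and library total) deposited beside it; versions, strand setting and the treatment of multi-mapping reads are not given in the sources used here. The FPKM values followed the counts. Counts of the 18 root libraries were fitted together in edgeR 4.0.16 (R 4.3.3) with TMM scaling, filterByExpr (minimum count 10) and the quasi-likelihood test, with Benjamini-Hochberg adjustment over 20486 genes, so the spread was estimated on 12 residual degrees of freedom. The contrasts were nlp2-2 over Col-4, the difference of that effect from nlp2-3 over Col-0, and the wild types over each other. All 36 libraries were fitted together for the difference between tissues (21554 genes), and shoots alone for the shoot effect (19137 genes). CPM are counts scaled to 1e+06 over TMM-scaled library sizes. SE is that of the fitted log2 fold change. The scripts were tested on simulated counts of independent libraries, drawn with the spread that edgeR had fitted. That checks the code and not whether the model suits these data.

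Members and lists were chosen with earlier results of these data known; families were found by symbol, leaving out genes that share a symbol but are annotated as another family. The text names NLP1 to NLP9, 5 nitrate genes, up to 12 genes a direction of largest change (mean of at least 5 CPM, no overlap), up to 5 of highest level, up to 6 called genes a direction of each list, up to 5 a direction of the other tests, and genes marked as chosen after their values were seen. Only called genes with a symbol entered the rankings by largest change, by highest level and of the other tests. Alternatives were DESeq2 1.42.0, limma 3.58.1 on log2(FPKM + 1) and log2(FPKM + 0.1), DESeq2's size factors in edgeR, other filters, the spread from the compared groups alone, Col-0 as the control, each library left out and the replicate number as a block. Same-numbered Col-4 and nlp2-2 root libraries deviated together from their group means, with correlations of 0.109, 0.15 and 0.184 against -0.155 to 0.001 for other pairs. Since deviations are centred within each group, the other pairs are not an independent contrast. The numbers thus seem to pair these samples, but weakly, and no label says what a number stands for. The main fit holds no term for the number, which only the replicate block adds. That block gives each number a shift shared by all genotypes in the fit. It therefore does not model pairs within a mutant and its own control, and no fit with such pairs was run. Beyond calling the libraries biological replicates, the labels do not say how plants were divided among them, so p-values measure the spread between libraries. Promoter windows of 250 bases and gene names come from RefSeq's TAIR10.1 annotation.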

Additional observations from a re-analysis of the deposited data

Results flagged for a closer look

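The difference between the effect of nlp2-2 (against Col-4) and that of nlp2-3 (against Col-0) in roots was called by edgeR's quasi-likelihood test for 13 genes. On the log2 scale it was 1.015 for CAX1, 1.195 for CAX3, 1.736 for CBL8, -1.382 for AT4G14330, -0.998 for ARP9 and 7.402 for AT2G08735. For the 7 genes that also differed between Col-4 and Col-0 it was 12.018 for AT3G18535, 8.172 for AT3G05955, 5.444 for QQS, 1.669 for AT5G08250, -2.660 for AT3G05945, -3.995 for AT3G05170 and -6.733 for AT2G06995. The values for AT3G18535, AT2G08735, AT3G05955 and AT2G06995 rest on groups at or near 0 reads and depend on the prior count of the fit.

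The effect of nlp2-2 differed between roots and shoots for 569 genes. Among those named, the difference (root minus shoot effect, log2) was 2.894 for DUR3, which was higher in roots and lower in shoots, -3.215 for BAM5 and 3.789 for LAS1. BAM5 was at -0.36 and LAS1 at -2.19 in shoots (adjusted p = 0.54 and 0.15).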

How the results depend on the processing

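For nlp2-2 against Col-4 in roots, 1458 genes were called, and with 1 library left out 846 to 1395 (353 to 722 higher, 493 to 673 lower); the lowest counts came without nlp2-2 library 2. Other settings gave 1327 to 1835. DESeq2 gave 885 higher and 950 lower, and the replicate block 841 and 917 (1758 in all), which, of the genes named, changed only the call of TIP1;1 (lower with the block). The share of higher genes among those called moved by less than 10 percentage points under every setting run. With Col-0 in place of Col-4, 7 named genes changed sign: AT3G18535 (-0.0523), AT3G18530 (-0.513), AT3G05955 (-0.0602), QQS (-4.08), AT3G05170 (3.965), AT3G05945 (2.403) and AT2G06995 (5.86).

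The difference between alleles gave 13 calls, 10 to 16 with 1 library left out, 24 by DESeq2 (15 higher, 9 lower) and 17 with the replicate block (13 higher, 4 lower). That between tissues gave 569, 399 to 628 with 1 library left out (198 to 332 higher, 184 to 296 lower), 899 by DESeq2 (464 higher, 435 lower) and 1046 by limma on log2(FPKM + 1) (595 higher, 451 lower). Col-4 against Col-0 gave 8, 8 to 18 with 1 library left out (3 to 11 higher, 5 to 8 lower; 18 without Col-0 library 1), 18 with the block (14 lower) and 20 by DESeq2 (9 higher, 11 lower). Same-numbered nlp2-3 and Col-0 roots also deviated together (0.243 to 0.461 against -0.336 to 0.068 for other pairs). So did nlp2-2 and Col-4 shoots (0.0863 to 0.203 against -0.161 to 0.0424). Between nlp2-2 and nlp2-3 roots, same-numbered pairs overlapped the others (-0.0814 to 0.188 against -0.268 to 0.228). They also overlapped between tissues and between Col-4 and Col-0 roots (for the latter -0.113 to 0.0347 against -0.295 to 0.294). The cause of these shifts was not tested. Depth limits the genes nearest to 0, since 3 reads over the Col-4 root libraries together were 0.046 CPM. AT3G18530, at 0.504 CPM on average in nlp2-2 roots, rested on 7 to 16 reads in each library.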

Other observations

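The ammonium transporter gene AMT1;1 was listed at no more than 0.162 CPM in any of the 6 root libraries. The cause of this low value was not tested. CYP82C2, a cytochrome P450 of defence metabolism chosen after its values were seen, was at 21.4, 0 and 1.70 CPM in Col-4 and 0.0983, 0 and 0.108 CPM in nlp2-2, so the groups overlapped and it was not called (-6.74 ± 2.62, adjusted p = 0.17 by edgeR's quasi-likelihood test).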
